A study of Mus musculus with 4 samples.

Results

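The 10 genes studied here mark blood vessel endothelial cells or form the angiopoietin-Tie system, and were compared between the nasal mucosa of young adult and aged mice. They are *Angpt1*, *Angpt2*, *Tek*, *Tie1*, *Cdh5*, *Pecam1*, *Esam*, *Cldn5*, *Eng* and *Vwf*. They were chosen by name, with earlier results of these data known, and their probes were found by matching the accession of each array probe to these gene symbols. All 10 were on the array, out of 45616 genes tested, and each was read by 1 probe spotted once. Per the labels, RNA was taken from septal nasal mucosa of C57BL/6J mice, male per the methods, and titled olfactory epithelium, at 8 weeks of age (young adult mice) or 16 months of age (aged mice). Each of the 4 arrays, 2 per age, carried Cy3-labelled RNA pooled from 5 mice. The methods count fewer mice per age for gene analyses than 2 separate pools would need, so the pools of an age may share mice, and P values then measure only the spread between these pools. A sample description naming silica aspiration and lung matches neither the titles nor the methods and was not used. The study asked how the aged nasal mucosa differs from the young adult one in its gene expression.

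Endothelial cells line every blood vessel. In the angiopoietin-Tie system, angiopoietin-1, made mainly by pericytes, smooth muscle and other mesenchymal cells, activates the endothelial receptor Tie2 (*Tek*) and holds vessels quiescent and tight, whereas angiopoietin-2, made and stored by endothelial cells, acts on the same receptor as a partial agonist or an antagonist. Tie1 is a related receptor that binds no angiopoietin by itself and modulates Tie2, and the phosphatase VE-PTP (*Ptprb*) removes phosphate from Tie2. In the nasal mucosa the vessels lie in the lamina propria beneath the olfactory epithelium, so mucosal RNA holds transcripts of both layers.

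Expression levels are background-corrected, quantile-normalized array intensities, and a fold change is the difference of mean log2 levels, aged minus young adult. Calls were made in limma and needed P below 0.05 with a false discovery rate (FDR) below 0.25, and a called gene was a differentially expressed gene (DEG) where its mean level reached 100 and its fold change 1.5. All 10 members were well above background on all 4 arrays, with a spot signal between 3.95 and 205 times the local background. Between 63.1 and 76.8% of non-control spots passed that background test per array, none was saturated, and the local background had a median of 32 to 67. One slide held array 1 of both ages, and the other arrays were on separate slides. Over all genes, levels correlated at 0.9872 between the young adult arrays and 0.9873 between the aged arrays. Between arrays of different ages the correlation was 0.9821 to 0.9892. Arrays of one age were therefore not consistently more alike than arrays of different ages. Levels of different genes come from different probes, so rankings, ratios and sums of levels across genes describe probe intensity and not transcript amount.

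Every member had both aged arrays below both young adult arrays, an arrangement seen in 21.8% of all genes tested. The 5 genes *Tie1*, *Eng*, *Vwf*, *Angpt1* and *Cldn5* fell in aged mice at the stated thresholds, where 2.33% of all genes were called lower and 1.65% higher. None rose. Of the 5, *Tie1*, *Eng* and *Vwf* were also DEGs, as were 1.15% of all genes in that direction. *Tek*, *Angpt2*, *Cdh5* and *Pecam1* had P below 0.05 without passing the FDR threshold, and *Esam* passed neither. Of the 45616 genes tested, 5992 had an unadjusted P below 0.05 in either direction. The median fold change of the 10 members was -0.49 on the log2 scale, whereas that of all genes was 0.01. In bulk RNA, fewer endothelial cells and less RNA of these genes per cell cannot be told apart.

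**Figure D1:**
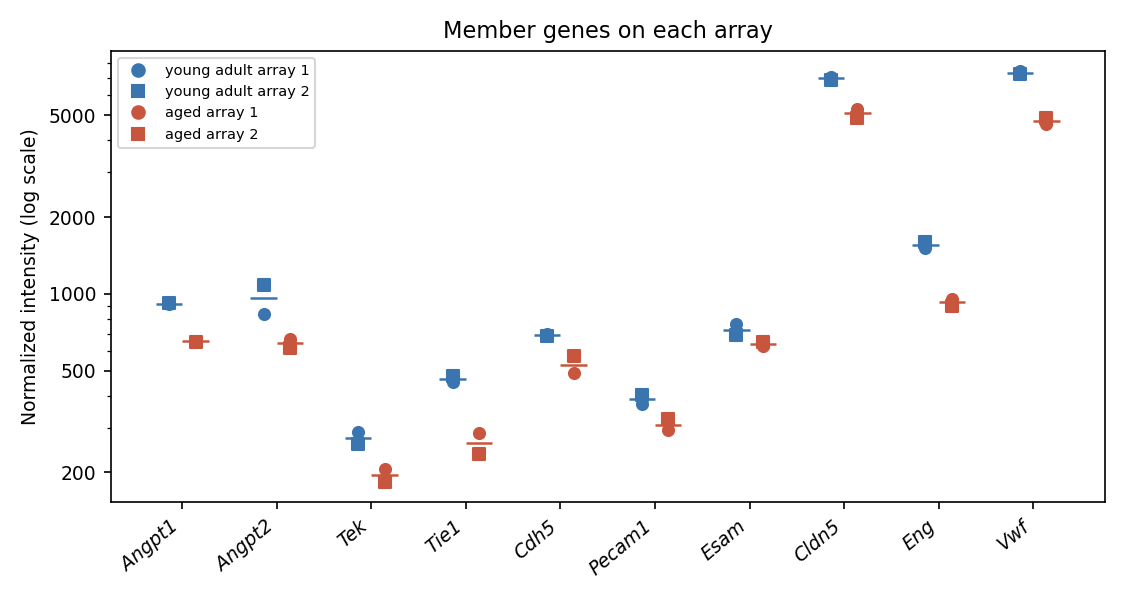
Normalized intensity (vertical log axis) of the 10 members on each of the 4 arrays; blue marks are young adult arrays, red marks are aged arrays, circles are array 1, squares are array 2, and short lines are group means (n = 2). Both aged arrays sit below both young adult arrays for each gene, with the widest gap for *Tie1* (mean 464.8 ± 16.8 against 260.8 ± 35.8, SD) and the narrowest for *Esam*.

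Beginning with the ligands, the level of *Angpt1* was 910.3 and 921.5 in young adult mice and 656.4 and 649.4 in aged mice. It fell by 0.49 on the log2 scale (SE 0.0741, 95% CI -0.71 to -0.267, FDR = 0.214, limma), to 71.3% of the young adult level. Both groups were tight, with log2 gaps of 0.0176 between the young adult arrays and 0.0154 between the aged arrays. The level of *Angpt2* was 834.7 and 1089 in young adult mice and 665.3 and 616.6 in aged mice. Its fold change of -0.57 (95% CI -1.08 to -0.0657, FDR = 0.343, limma) was larger in size than that of *Angpt1*, but young adult array 2 stood above array 1 by 0.383 on the log2 scale. Without young adult array 1 the fold change of *Angpt2* was -0.77, and without young adult array 2 it was -0.38. The log2 ratio of *Angpt2* over *Angpt1* was -0.125 and 0.24 in young adult mice and 0.0196 and -0.0747 in aged mice. The ratio thus overlapped between the ages (exact permutation test, two-sided, P = 1). With 2 arrays per age this test cannot give a P below 0.333, so it could not detect a difference between the changes of the 2 ligands.

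Among the receptors, *Tie1* had the largest fall of the 10 members, and its level was 452.9 and 476.7 in young adult mice and 286.1 and 235.4 in aged mice. It fell by 0.84 on the log2 scale (SE 0.134, 95% CI -1.24 to -0.441, FDR = 0.221, limma), to 55.9% of the young adult level. The fall was 0.663 between the arrays of one slide and 1.02 between the other 2 arrays. That spread came mainly from the aged arrays, with a log2 gap of 0.281 between them against 0.0739 between the young adult arrays. The level of *Tek* was 287.2 and 259.1 in young adult mice and 206.1 and 184.2 in aged mice, a fold change of -0.49 (SE 0.112, 95% CI -0.821 to -0.151, FDR = 0.286, limma). *Tek* gave nearly the same fold change on the slide that held both ages (-0.479) and on the other 2 arrays (-0.492). Within arrays, the log2 ratio of *Tie1* over *Tek* was 0.657 and 0.88 in young adult mice and 0.473 and 0.354 in aged mice, so the ratio was lower on both aged arrays, with a change of -0.355. The 2 pairs compared, receptors and ligands, cannot reach significance with 2 arrays per age, since the smallest two-sided P of the exact permutation test is 0.333, the value this receptor ratio gave.

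The junction genes encode proteins that hold endothelial cells together. *Cldn5*, the principal tight junction claudin of endothelium, had levels of 7097 and 6905 in young adult mice and 5282 and 4903 in aged mice. It fell by 0.46 on the log2 scale (95% CI -0.716 to -0.204, FDR = 0.246, limma), just inside the FDR threshold. *Cdh5*, which encodes VE-cadherin of the adherens junction, had levels of 699 and 687.1 in young adult mice and 488.6 and 569.7 in aged mice. Its fold change was -0.39 (95% CI -0.731 to -0.0562, FDR = 0.335, limma), and the 2 aged arrays differed more than the 2 young adult arrays. *Pecam1*, an adhesion molecule of endothelium, platelets and leukocytes, had levels of 370.9 and 402.2 against 292.6 and 323.6, with a fold change of -0.33 (95% CI -0.635 to -0.0211, FDR = 0.361, limma). *Esam*, an adhesion molecule of endothelial tight junctions, had levels of 761.9 and 689.7 against 625.5 and 646.4. Its fold change of -0.19 had an interval that includes 0 (95% CI -0.469 to 0.091, FDR = 0.512, limma), and its lower end reaches the fold change of *Cldn5*.

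*Eng* and *Vwf* complete the set. *Eng* encodes endoglin, a co-receptor for TGF-beta family ligands such as BMP9, and its levels were 1518 and 1605 in young adult mice and 958.6 and 895.9 in aged mice. It fell by 0.75 on the log2 scale (SE 0.0881, 95% CI -1.02 to -0.489, FDR = 0.192, limma), to 59.4% of the young adult level. *Vwf* encodes von Willebrand factor, the platelet-binding clotting protein that endothelial cells store together with angiopoietin-2, and its levels were 7449 and 7261 in young adult mice and 4624 and 4908 in aged mice. It fell by 0.63 on the log2 scale (SE 0.0819, 95% CI -0.871 to -0.382, FDR = 0.202, limma), to 64.8%. The gap between the ages was 7.7 times the larger of the gaps between arrays of one age for *Eng* and 7.28 times for *Vwf*. Over the members this ratio ran from 1.32 for *Esam* to 27.7 for *Angpt1*. With 2 arrays per age, from pools that may share mice, the spread between replicate pools is itself poorly known.

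**Figure D2:**
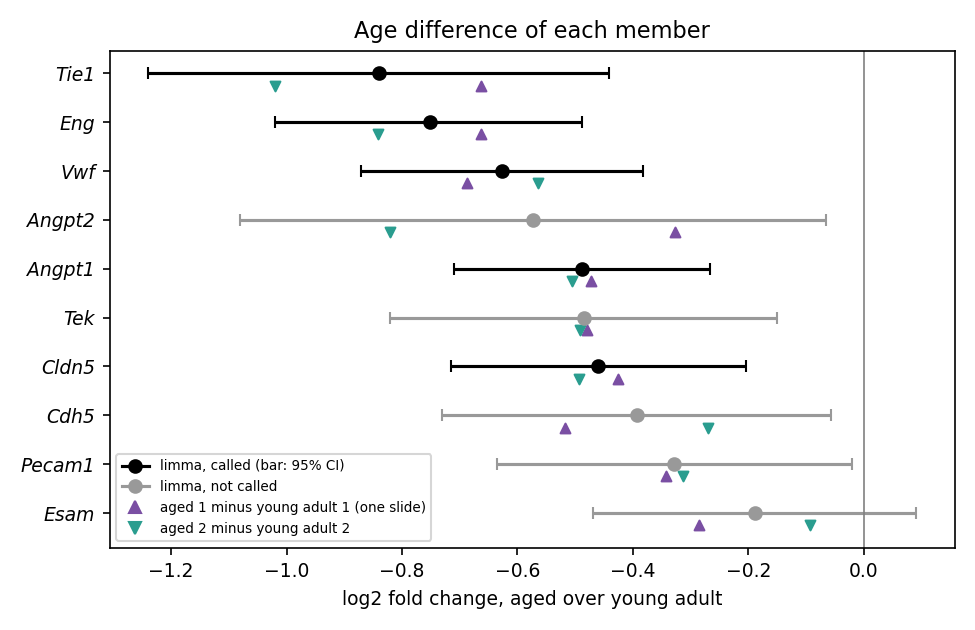
Log2 fold change (horizontal axis, aged over young adult) of each member, with the limma estimate and its 95% CI (black where called, grey where not), the difference between the 2 arrays of one slide (upward triangles) and that between the other 2 arrays (downward triangles). All triangles lie left of 0, and only the interval of *Esam* crosses it.

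In order of fold change the members ran *Tie1*, *Eng*, *Vwf*, *Angpt2*, *Angpt1*, *Tek*, *Cldn5*, *Cdh5*, *Pecam1* and *Esam*. The 95% CIs of neighbours in this order overlapped, which is not a test of their difference. Among neighbours only *Angpt2* and *Angpt1* were compared within arrays, as given above, so the order is a description. Leaving out any 1 array kept all 10 fold changes below 0 but left no member, and no gene on the array, below an FDR of 0.25. The FDR of the members was then 0.44 to 0.672 without young adult array 1, 0.458 to 0.575 without young adult array 2, 0.677 to 0.815 without aged array 1 and 0.408 to 0.624 without aged array 2. In each of these fits the age with a single array was assumed to vary like the pair of the other age.

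Promoter sequence was at hand for *Eng*, *Tie1* and *Cldn5* among the called members and for *Tek* among the others. ETS family factors such as ERG and FLI1 are known regulators of endothelial genes, and SOX, GATA, FOX and SP/KLF factors also act at such promoters. The 250 bases before the gene start of the 3 called genes are shown because they fell together, 5′ to 3′ on the gene's strand (RefSeq, GRCm38.p6). *Eng* is at chr2:32646345-32646594 (+ strand), *Tie1* at chr4:118489850-118490099 (- strand) and *Cldn5* at chr16:18776597-18776846 (+ strand). Capitals mark every match, on either strand, to the words AGGAAG and CGGAAG bound by ETS factors, AGATAA bound by GATA factors, TAAACA bound by FOX factors, ACAAT bound by SOX factors and GGGCGG bound by SP/KLF factors. The 2 ETS words share their last 5 letters.
Eng: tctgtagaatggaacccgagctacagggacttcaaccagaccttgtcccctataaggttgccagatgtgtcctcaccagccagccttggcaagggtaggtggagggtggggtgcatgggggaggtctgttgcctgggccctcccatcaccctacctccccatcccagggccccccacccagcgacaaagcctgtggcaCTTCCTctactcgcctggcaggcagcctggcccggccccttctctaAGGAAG
Tie1: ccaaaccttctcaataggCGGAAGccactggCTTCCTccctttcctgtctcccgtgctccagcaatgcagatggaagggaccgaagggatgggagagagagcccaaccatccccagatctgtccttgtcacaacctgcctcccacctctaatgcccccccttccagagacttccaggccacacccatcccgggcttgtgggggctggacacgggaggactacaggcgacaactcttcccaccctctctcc
Cldn5: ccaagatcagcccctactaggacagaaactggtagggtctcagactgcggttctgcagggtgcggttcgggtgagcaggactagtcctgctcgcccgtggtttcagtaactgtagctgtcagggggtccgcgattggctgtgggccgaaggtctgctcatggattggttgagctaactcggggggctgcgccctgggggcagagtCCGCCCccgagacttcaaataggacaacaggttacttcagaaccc
The *Eng* window held AGGAAG 2 times, once on each strand, the second directly before the gene start. The *Tie1* window held AGGAAG and CGGAAG 1 time each, close together near its far end, and the *Cldn5* window held GGGCGG 1 time and neither ETS word. The *Tek* window, whose gene was not called, held ACAAT 2 times and neither ETS word. Of 32851 promoter windows of this length, 29.5% held AGGAAG, 13.6% CGGAAG, 9.99% AGATAA, 12% TAAACA, 27.7% ACAAT and 32.7% GGGCGG, so these words are common and the matches are a description only.

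Of 18 further genes of the angiopoietin-Tie pathway, from ligands and adaptors to downstream kinases, 1 fell and none rose. That gene was *Ptprb*, the Tie2 phosphatase, with levels of 5449 and 4771 in young adult mice and 2978 and 3037 in aged mice. It fell by 0.76 on the log2 scale (95% CI -1.07 to -0.449, FDR = 0.206, limma), to 59% of the young adult level, and was a DEG. The adaptors *Grb7* and *Grb2*, which bind activated receptor kinases in many cell types, had fold changes of -0.20 (FDR = 0.461) and -0.10 (FDR = 0.671) and were not called. The median of the 18 genes was -0.10, against -0.49 for the members. Among 6 angiopoietin-like genes, which encode secreted proteins related to the angiopoietins in sequence that do not act through Tie2, *Angptl4*, an inhibitor of lipoprotein lipase, rose. Its levels were 1215 and 1213 in young adult mice and 2268 and 2116 in aged mice, a rise of 0.85 on the log2 scale (95% CI 0.604 to 1.1, FDR = 0.184, limma), opposite in direction to both angiopoietins. *Angptl6* (0.21, FDR = 0.412) and *Angptl7* (0.00, FDR = 0.999) were not called, and the median of this list was 0.09, but -0.119 without aged array 1 and -0.0368 without young adult array 2.

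The partners of the other members were mostly not called. Of 12 genes of the endoglin and BMP9 pathway none was called and 2 had an unadjusted P below 0.05, with a median of -0.06. Its most highly expressed genes were *Id3* (-0.34, FDR = 0.294) and *Id1* (0.07, FDR = 0.783), both transcriptional targets of BMP signalling. Of 12 junction partners none was called and 1 had an unadjusted P below 0.05. *F11r*, which encodes the junction molecule JAM-A of epithelium and endothelium, had a fold change of 0.00 (95% CI -0.282 to 0.282), and *Jam3* one of 0.13 (FDR = 0.572). Many of these partners are also made by epithelial cells, and the median of the list was 0.03, and -0.0143 without young adult array 2. Of 9 endothelial clotting genes, *Procr*, the endothelial protein C receptor, fell by 0.42 on the log2 scale (FDR = 0.242, limma), whereas *Plat* (0.21, FDR = 0.445), the tissue plasminogen activator, and *Thbd* (-0.18, FDR = 0.512), thrombomodulin, were not called.

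Of 24 other endothelial surface and secreted markers 16 fell and none rose, 12 of them as DEGs, with a median of -0.58. *Clec14a*, an endothelial lectin-like receptor, fell the most, from 284.8 and 285.5 to 129 and 125.1 (44.6% of the young adult level, FDR = 0.178, limma). *Myct1* fell to 47.5%, *Egfl7*, a secreted endothelial matrix protein, to 57.6%, and *Emcn*, endomucin of capillaries and veins, to 58.2%. The list was not uniform: 4 of its genes lay above 0, and the following were looked up after their values were seen. *Nos3*, endothelial nitric oxide synthase, had levels of 2191 and 2295 in young adult mice and 2640 and 2540 in aged mice, with a fold change of 0.21 (95% CI -0.0335 to 0.449, FDR = 0.426, limma). *Gpihbp1*, the capillary anchor of lipoprotein lipase, had a fold change of 0.33 (FDR = 0.414), *Mcam* one of 0.10 (FDR = 0.701) and *Ramp2* one of 0.01 (FDR = 0.975). *Ptprb* and *Nos3* are also among the angiopoietin-Tie genes above, and *Acvrl1* of this list is also among the endoglin and BMP9 pathway genes.

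Among 12 endothelial transcription factors, 2 fell and 1 rose, and 10 of the 12 lay below 0. The number called lower depended on the processing and was 2 to 9 over the alternatives with all arrays and no block, highest with an intensity trend in eBayes. That fit called 3517 of all genes lower, against 1063 in the main fit. *Sox18*, a SOX factor of vessel and lymphatic development, fell by 0.90 on the log2 scale (FDR = 0.197, limma), and *Tal1*, a factor of blood and endothelial cells, by 0.79 (FDR = 0.205, limma). *Klf2*, a factor induced by blood flow, had levels of 2397 and 2462 in young adult mice and 3277 and 3465 in aged mice and rose by 0.47 (95% CI 0.23 to 0.715, FDR = 0.234, limma). Of 6 lymphatic endothelial markers none was called, with a median of -0.05, and those with the highest expression were *Pdpn* (-0.01, FDR = 0.955) and *Mmrn1* (-0.45, FDR = 0.264). *Mmrn1* is also among the clotting genes above.

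**Figure D3:**
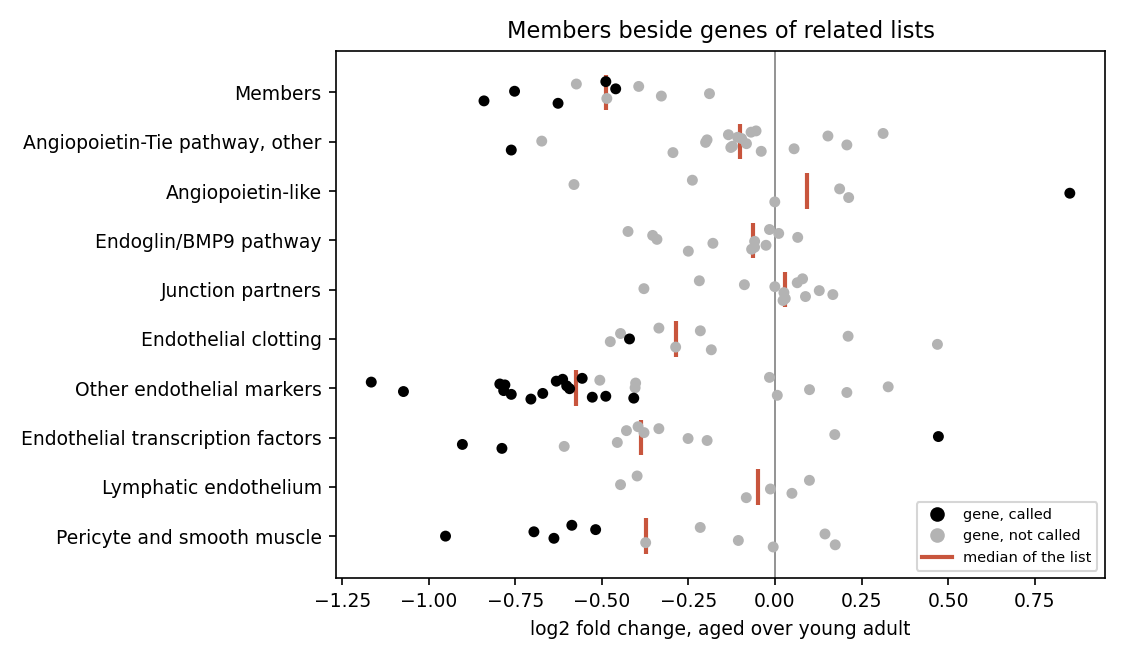
Log2 fold change (horizontal axis, aged over young adult) of each gene of the members and of 9 related lists, black where called and grey where not, with the list median as a red line. The medians of the members (-0.49), the other endothelial markers (-0.58) and the endothelial transcription factors (-0.39) lie left of 0. So do those of the pericyte and smooth muscle markers (-0.37) and the clotting genes (-0.29). The medians of the junction partners (0.03) and the endoglin pathway (-0.06) lie close to 0, and *Angptl4* and *Klf2* are the called genes to the right.

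Markers of other cells that could carry or accompany these genes were measured on the same arrays. Of 11 pericyte and smooth muscle markers 5 fell and none rose, led by *Kcnj8*, a potassium channel of pericytes (51.7% of the young adult level), with *Cspg4* (61.7%), *Myh11* (64.2%) and *Cnn1* (69.8%). The list had 9 of 11 genes below 0 and a median of -0.37, and 10 of 11 were well above background on all arrays. Its summed level was 62540 to 64450 in young adult mice and 60720 to 61720 in aged mice, a sum to which the bright probes of *Tagln* (fold change -0.01) and *Rgs5* (0.17), looked up after their values were seen and not called, contribute most. Of 7 fibroblast markers 4 fell, the collagens *Col3a1* (25.5%), *Col1a1* (25.4%) and *Col1a2* (35%), and *Lum* (61.6%). The summed level was 228000 to 252500 against 121100 to 128700, and *Col1a2* alone had a mean of 94880 against 33150. *Pdgfra* (fold change -0.29), *Dcn* (-0.19) and *Thy1* (0.03), looked up after their values were seen, were not called. The lower sum therefore does not show a like fall of every fibroblast marker. Of 7 macrophage markers 2 fell, *Cd68* (58.1%) and *Mrc1* (63.9%), with a summed level of 8540 to 8934 against 6853 to 6854. Of 6 platelet markers 1 fell, *Pf4* (69.4%), while 3 lay below 0 and 3 above, and only 3 were well above background on all arrays. Both aged arrays were lower for 2 of the 6 and higher for 1, arrangements seen in 21.8% and 24.2% of all genes tested. The gene with both aged arrays higher was *Itga2b* (fold change 0.46, FDR = 0.332), looked up after its values were seen and not called. The summed level was 2375 to 2562 against 1988 to 2051, a sum to which *Pf4* (mean 1891 against 1313) contributes most. Platelets carry *Vwf* and *Pecam1*, and mural cells and fibroblasts make *Angpt1*. The part of these cell types in the members' values was not tested.

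Lymphoid and general leukocyte markers (0 of 5 called, summed level 781.5 to 861.3 in young adult mice and 722.6 to 776.1 in aged mice) and erythroid markers (0 of 4 called, 448.4 to 524.3 against 473.9 to 482.7, with 2 of the 4 not well above background on any array) gave no call in limma. Of these 9 genes 1 had an unadjusted P below 0.05. Mature olfactory receptor neuron markers had 5 of 5 genes well above background on all arrays, none called, and a summed level of 413400 to 423300 against 454400 to 464100. Sustentacular cell markers had 0 of 4 genes called and a summed level of 777200 to 780300 against 805600 to 815600. Of 8 pituitary markers *Prl* and *Gh* rose, and the summed level was 1182 to 1244 in young adult mice and 9312 to 9835 in aged mice, and *Gh* did not reach the background test in young adult mice. Whether the tissue taken along differed between the ages was not tested as a source of the members' values.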

How the data were processed

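RNA of 4 pools of nasal mucosa (septal, per the labels) was measured on one-color Agilent arrays. The authors deposited, per the file headers, spot intensity values from Feature Extraction 11.0.1.1 (median spot signal, local background, a processed signal and quality flags), not normalized between arrays. The deposited value table equalled the processed signal on all 62976 spots of each array. The array design names mm9. The methods name limma and R 3.2.1.

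Here, with limma 3.58.1 in R 4.3.3, the median signal was corrected by normexp (offset 0), outlier-flagged (88 to 118 per array) and control spots were left out, spots of a probe were averaged, log2 values were quantile normalized, and probes of a gene were averaged. Probe accessions were matched to a RefSeq table (32994 of 56605 probes), and other probes kept their identifier. Age was fitted with lmFit and eBayes on 4 arrays without covariates, with Benjamini-Hochberg FDR over 45616 genes. The fit was tested on simulated data. The number of arrays limits the precision.

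The members and gene lists were chosen with earlier results of these data known, so lists have no test. All members are named. From other lists at most the first 4 called genes by P are named and, in pathway and endothelial lists with fewer than 2 called, also the 2 most highly expressed uncalled genes. Alternatives concerned the background, normalization, filters, probe choice, test, slide, block, thresholds and single arrays.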

Additional observations from a re-analysis of the deposited data

How the results depend on the processing

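All 10 members stayed below 0, none was called higher, and no direction changed under any alternative. The 5 members called lower became 9 with a normexp offset of 50, 8 without background correction, 9 without dim probes and 9 with an intensity trend in eBayes. They became 3 with 75th percentile scaling of the corrected or the processed signal, which lost *Cldn5* with both, *Tie1* with the former and *Angpt1* with the latter. *Eng* and *Vwf* were called in all 12 alternatives that kept every array, had no block and kept the thresholds, and *Esam* in none of them. *Klf2*, *Procr* and *Pf4* also lost their calls with 75th percentile scaling of either signal, and *Cnn1* with that of the corrected signal and with single or most intense probes. Requiring the expression and fold limits left 3 members, with 524 genes lower and 371 higher in all. An FDR below 0.05 left 0 members, 0 genes lower and 0 higher, although 5992 genes had an unadjusted P below 0.05. With all arrays and no block, the number called lower was 12 to 19 of the other endothelial markers, 2 to 9 of the endothelial transcription factors, 1 to 5 of the other angiopoietin-Tie genes, 0 to 4 of the clotting genes and 4 to 7 of the mural markers. All genes called lower, 1063, and higher, 754, became 1693 and 1298 with an offset of 16, 2478 and 2107 with an offset of 50, 2241 and 1788 without background correction, 2346 and 2030 with the processed signal quantile normalized, 3672 and 3579 without dim probes, and 3517 and 3607 with the trend. The median of the members, -0.487, was -0.4686 with an offset of 16, -0.4574 with an offset of 50, -0.4654 without background correction, -0.5032 with the processed signal at the 75th percentile and -0.5068 with it quantile normalized. Leaving out 1 array, with the lone array assumed to vary like the other age, gave 0 to 0 members called lower, 0 to 0 genes lower and 0 to 0 higher in limma, with 3294 to 5291 genes at an unadjusted P below 0.05 and a median of -0.5427 to -0.4685. The replicate block gave 0 members, 0 genes lower and 0 higher (smallest FDR 0.433, with 7 members and 5197 genes at an unadjusted P below 0.05), and same-numbered arrays did not deviate together (r = -0.0779 over genes), so the number was not taken as a pairing. On the 2 arrays of one slide the median was -0.4753. Slide as a random block could not be fitted, and taking probes by a gene name column was not run, because that column was not among those used here.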
